A study of Homo sapiens with 9 samples.

Results

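The first hairpin clone against STOML2 was compared with the blank-plasmid clone in AsPC-1 cells, an established line of human pancreatic adenocarcinoma. STOML2 encodes SLP-2, stomatin-like protein 2. The comparison uses the 3 arrays titled as SLP-2 sh1 and the 3 arrays titled as SLP-2 control, 6 of the 9 arrays of the series, and all 17709 rows of the deposited table that carry 1 gene symbol, out of 21448 rows. These rows stand for 17687 genes, and a gene with more than 1 row was taken by its brightest row. Control cells received the empty pBAsi-hU6 NEO vector, and sh1 cells received the same vector with the first of 2 short hairpin sequences against SLP-2. The remaining group, sh2, carried the second hairpin and also had 3 arrays. In all 3 groups the cells grew for 3 weeks under Geneticin, and 1 colony was then picked and expanded. Each group is therefore 1 clone, and an effect of the hairpin and a difference between clones cannot be told apart. The labels do not say whether the 3 arrays of a clone are separate cultures, so p-values measure the spread between arrays, which may be technical.

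SLP-2 sits on the inner membrane of mitochondria, where it binds cardiolipin and prohibitins, forms a complex with the rhomboid protease PARL and the protease YME1L1, and helps to hold respiratory complexes together. It is often abundant in carcinomas. Epithelial cells are joined by cadherin-based adherens junctions, tight junctions and desmosomes, and keep factors such as ESRP1 and the grainyhead proteins. Cells that leave this state make N-cadherin, vimentin and fibrillar collagens under factors of the SNAI and ZEB families. The genes below are ordered by those roles.

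Values are log2 signals, so a difference of 1 is a 2-fold change. Each change is sh1 minus control with its standard error (SE). A gene rose or fell where limma gave an adjusted p (Benjamini-Hochberg over all 21448 rows) under 0.05, and every adjusted p below comes from that fit. Array medians of control and sh1 lay between 6.59 and 6.64, and their lower quartiles between 4.19 and 4.25. The lower quartile of the row means, 4.21, is used as a sign of a signal near background, in place of detection calls, which were not used here. Across rows, arrays correlated at 0.994 to 0.996 within control or sh1 and at 0.982 to 0.985 between them. The number of arrays limits the precision. Counts of 0 to 2 genes in a list often moved by 1 or 2 genes when 1 array was left out, and are given without those values except where stated. Lists and their members were chosen with earlier results of these data known. A list share beside the share over all genes is therefore a description and no test.

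The clone differed from the control at many genes. Of 17687 genes, 1865 rose (10.5%) and 1719 fell (9.72%), so that 20.3% were called. These shares, which are not matched for signal level, are the background for each list count below. Solute carriers (21.8% called), ADAMTS proteases (22.2%) and S100 proteins (23.8%) are among the families near it. At 1094 genes (6.19%) the called change was at least 2-fold, upward at 489 (2.76%) and downward at 605 (3.42%). The 3 sh1 arrays lay wholly outside the range of the 3 control arrays at 6468 genes (36.6%). A called change had a median size of 0.76 on the log2 scale, and the smallest was 0.35. The median change over all genes was 0.02. Set directly against sh2, 12.4% of genes differed in sh1. A change of 8-fold or more was seen at 30 genes that rose and 40 that fell.

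The share of called rows grew with the signal level. With the rows cut by mean signal into 4 bins of equal size, 2.61% were called in the lowest bin, then 12.4%, 27.9% and 32.2% in the highest. The spread followed the reverse order only in part. The median SD over 3 arrays was 0.178 in the control and 0.191 in sh1 in the lowest bin, 0.206 and 0.220 in the second, 0.170 and 0.185 in the next, and 0.110 and 0.125 in the highest. In each bin the sh1 arrays varied more than the control arrays. The second sh1 array deviated most from its group, by a median of 0.130, against 0.103 to 0.110 for the other 5 arrays.

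**Figure D1:**
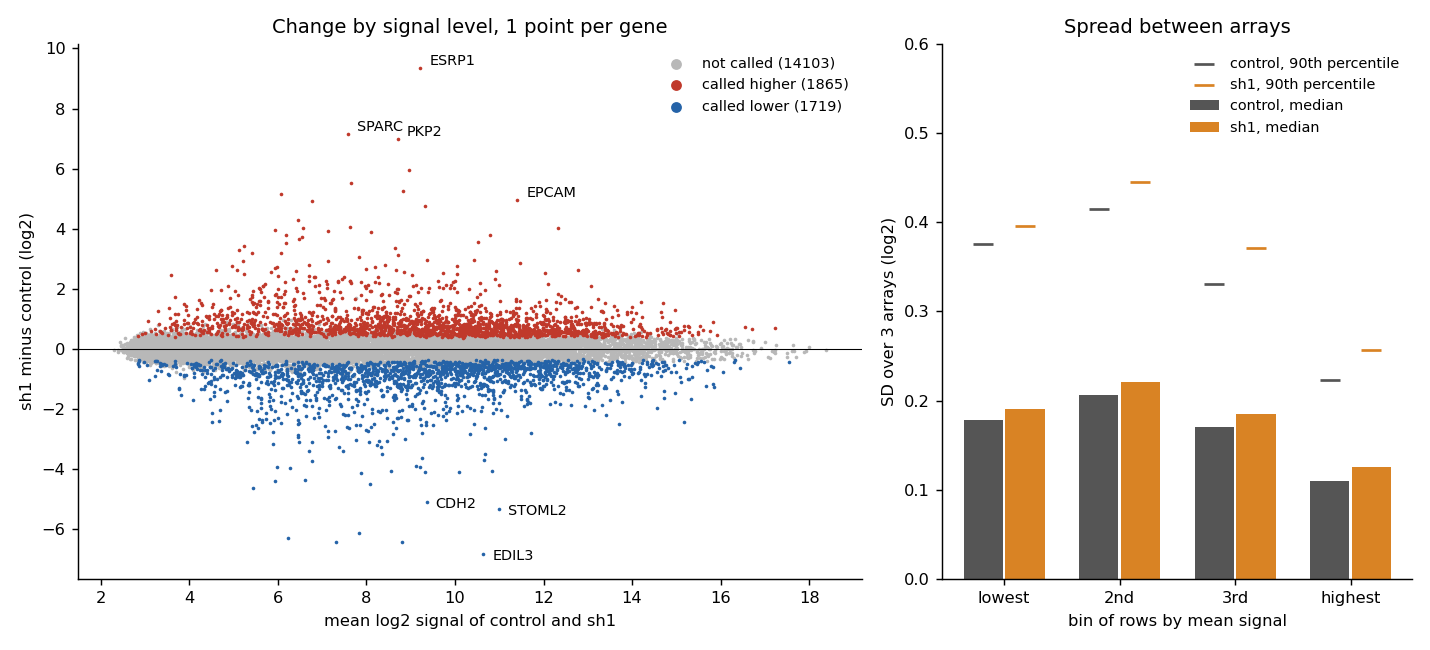
Left, change of each gene (sh1 minus control, log2) against its mean log2 signal over the 6 arrays, with called genes in colour and 7 genes named. Right, SD over 3 arrays by bin of rows, as the median (bars) and the 90th percentile (dashes) in control and sh1. The named genes lie far outside the grey band, and the bars are lowest in the highest bin, at 0.110 and 0.125.

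STOML2, the target, fell. Its log2 signals were 13.7, 13.66 and 13.65 in the control arrays and 8.36, 8.42 and 8.18 in the sh1 arrays, a change of -5.35 ± 0.16 (adjusted p = 2.31e-09). The groups lie far apart, and the sh1 signals were still above the lower quartile of all rows. In sh2 the signals were 7.85, 7.99 and 7.35, and the residual signal in sh1 was higher than in sh2 by 0.59 (adjusted p = 0.0394).

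Some of the largest changes ran between a signal near background and a high one. By size, the 15 genes that rose most began with ESRP1, which directs epithelial splicing, and SPARC, a secreted collagen-binding protein. ESRP1 read 4.27, 5.01 and 4.36 in the control arrays and 13.68, 14.08 and 13.9 in sh1, a change of 9.34 ± 0.19 (adjusted p = 3.44e-10). SPARC went from 3.99, 4.54 and 3.48 to 11.21, 11.05 and 11.24, a change of 7.16 ± 0.22 (adjusted p = 2.31e-09). In control arrays both lay near the lower quartile of rows, SPARC under it, and each sh1 array was far above each control array.

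PKP2 (plakophilin 2) is a plaque protein of desmosomes, SPINT1 an inhibitor of membrane-bound serine proteases, and EPCAM an adhesion molecule of epithelia. Control arrays gave 4.98, 5.83 and 4.86 for PKP2 and sh1 arrays 12.26, 12.18 and 12.14, a change of 6.97 ± 0.23 (adjusted p = 3.05e-09). The SPINT1 signals were 5.7, 5.96 and 6.3 and 11.76, 11.95 and 12.14, a change of 5.96 ± 0.18 (adjusted p = 2.31e-09). For EPCAM the control arrays read 8.9, 8.81 and 9.11 and the sh1 arrays 13.83, 13.98 and 13.83, a change of 4.94 ± 0.14 (adjusted p = 1.77e-09). The control arrays of EPCAM were already well above the lower quartile.

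The mitochondrial creatine kinase genes CKMT1B and CKMT1A rose by 5.50 ± 0.25 and 4.76 ± 0.15, with local medians of 0.68 and 0.69 over neighbouring genes on chromosome 15. They are near-identical copies, so their probes may share signal and their separate values are uncertain. The other genes of the first 15 were NEO1 (5.26), the receptor neogenin, SCIN (5.15), the actin-severing protein scinderin, and KCNH7 (4.92), a voltage-gated potassium channel. Also among them were TNIK (4.30), a kinase of WNT signalling, PLEKHG1 (4.06), NID1 (4.03), the basement membrane linker nidogen, OLR1 (4.02), a receptor for oxidised LDL, and ALDH1A1 (3.95), a retinal dehydrogenase. ALDH1A1 varied most among the sh1 arrays, at 7.54, 8.29 and 7.88, against 4.2, 4.4 and 3.27 in the control.

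At the other end stood EDIL3, an integrin-binding matrix protein, with 14.02, 13.95 and 14.24 in the control and 7.29, 6.95 and 7.4 in sh1, a change of -6.86 ± 0.20 (adjusted p = 1.77e-09). CADM1, an adhesion molecule of the immunoglobulin superfamily, read 12.09, 11.93 and 12.02 and 5.2, 6.1 and 5.43, a change of -6.44 ± 0.26 (adjusted p = 3.01e-08). PLPP4, a phosphatase of lipid phosphates, had signals of 10.43, 10.53 and 10.62 and 4.19, 4.19 and 3.89, a change of -6.44 ± 0.17 (adjusted p = 1.62e-09). In sh1, PLPP4 was below the lower quartile of rows in each array, while CADM1 stayed above it.

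CDH2 encodes N-cadherin, the cadherin of mesenchymal and neural cells. Its signal was 11.93, 11.85 and 11.98 in control arrays and 7.18, 6.57 and 6.68 in sh1 arrays, a change of -5.11 ± 0.17 (adjusted p = 4.37e-09), with no overlap. The remaining genes of the lower 15 were TRHDE (-6.30), a peptidase that degrades thyrotropin-releasing hormone, SLCO1B3 (-6.13), a transporter of organic anions, and DPYSL3 (-4.63), a cytosolic protein of growth cones. DRD1 (-4.50), a dopamine receptor, CDK14 (-4.42), a cyclin-dependent kinase, TRIB2 (-4.37), a pseudokinase, and GBP2 (-4.16), a guanylate-binding protein induced by interferon, were among them too. STEAP1 (-4.12), a membrane protein of the STEAP family, ALCAM (-4.10), an adhesion molecule, and LTBP2 (-4.08), which binds microfibrils, completed them with STOML2.

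**Figure D2:**
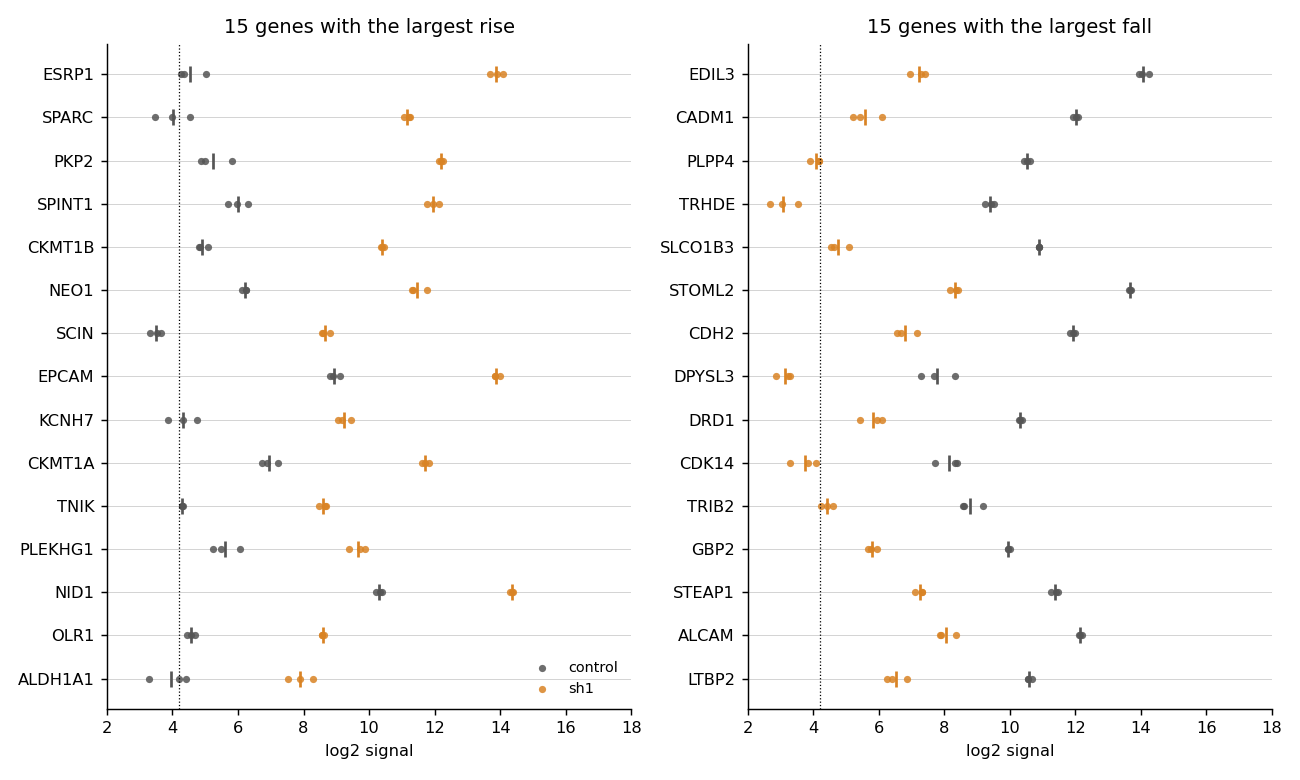
Log2 signal of each control (grey) and sh1 (orange) array for the 15 genes that rose most and the 15 that fell most, with group means as vertical ticks and the lower quartile of row means (4.21) as a dotted line. No gene shown has overlapping groups, and TRHDE, DPYSL3, CDK14 and PLPP4 end to the left of the line in sh1.

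A stricter description takes genes from a control mean under the lower quartile (4.21) to an sh1 mean above the median row (6.61). That was so for 7 genes, CYP24A1, NRG4, MAL2, SCG2, ALDH1A1, SCIN and SPARC. The reverse held for 8 genes, PLPP4, TRHDE, DPYSL3, CDK14, NRP2, EPB41L4A, EPHA4 and CAMK1D. One side of each of these changes may be background, so their sizes and their ranks by size are uncertain. NRP2 is a receptor for semaphorins and VEGF-C and EPHA4 an ephrin receptor. MAL2, which serves apical transport, read 3.65, 3.25 and 3.52 in control arrays and 6.76, 6.81 and 6.71 in sh1 arrays. NRP2 signals were 7.62, 7.75 and 8.5 in the control and 4.0, 4.06 and 3.97 in sh1.

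Whole chromosomes also shifted. Among genes with a mean signal above the median row (9369 genes, 16.2% higher and 14.7% lower), 70.7% of the 324 genes on chromosome 15 rose and 0.926% fell, with a median change of 0.76. On chromosome 12, 33.5% of 505 genes rose and the median was 0.32. More genes fell than rose on chromosome 5 (32.1% of 433, median -0.31), chromosome 6 (32.7% of 510, median -0.23), chromosome 10 (28.6% of 384, median -0.09) and chromosome 17 (20.7% of 555, median -0.08). Against the same control, the sh2 medians of these genes were 0.25 on chromosome 15 and 0.32 on chromosome 12. They were -0.53 on chromosome 5, -0.20 on chromosome 6, -0.03 on chromosome 10 and -0.14 on chromosome 17. In sh1 the shifts were uneven along some of these chromosomes. The median over 40 neighbouring genes reached -1.12 on chromosome 10, -0.90 on chromosome 6 and -0.63 on chromosome 17, and on chromosome 15 it stayed between 0.53 and 0.97. For each gene whose change is printed, this local median is given where its size is 0.5 or more, since a change of the whole neighbourhood and one of the gene itself cannot be told apart from expression alone. STOML2 lies on chromosome 9 where the local median was -0.51, and its change less that median was -4.84. At NEO1, on chromosome 15, the local median was 0.72.

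**Figure D3:**
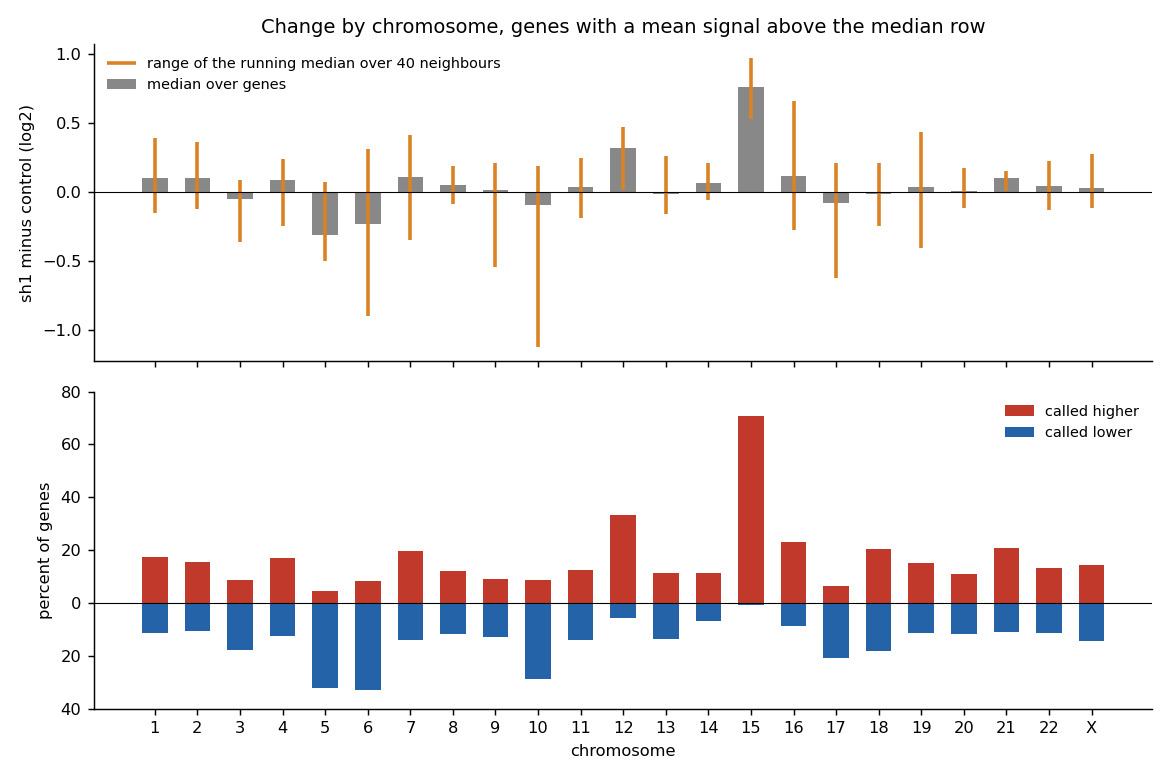
Top, median change (bars, log2) of genes above the median row on each chromosome and the range of the median over 40 neighbouring genes (orange lines). Bottom, percent of these genes called higher (up) or lower (down). Chromosome 15 stands apart, with 70.7% called higher, and chromosomes 5, 6 and 10 have the most genes called lower.

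The labelled cell type was checked by marker lists. Of 11 measured ductal and carcinoma epithelial markers, 0 had a control mean under the lower quartile and 3 had one under the median row. The mean of the list per array was 9.98 to 10.03 in the control and 11.61 to 11.69 in sh1. Of 8 acinar and 5 islet markers none changed at an adjusted p under 0.05. In the control 7 of 8 and 5 of 5 lay under the median row, and 5 and 3 under the lower quartile. Of 11 stromal markers 6 lay under the median row and 3 under the lower quartile in the control. Of 8 endothelial markers 0 were called, and of 9 leukocyte markers PTPRC and CD68 fell, by -0.70 ± 0.16 and -0.48 ± 0.14. CD68 lost its call in 5 of the 6 fits with 1 array left out. Each group is 1 expanded colony, and in its bulk RNA fewer cells that express a gene and less RNA per cell cannot be told apart.

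Among the ductal and epithelial markers 6 rose and 1 fell of 11 measured, with a median of 0.71. Besides ESRP1 and EPCAM, ELF3 (2.25), an epithelial ETS factor, CDH1 (2.03), which encodes E-cadherin, KRT18 (1.21) and KRT8 (0.71) rose, while KRT19 (-1.69) fell. CDH1 signals were 8.58, 8.71 and 8.83 in the control and 10.61, 10.62 and 10.99 in sh1. In sh2, CDH1 was called lower than in the control, at -0.52 (adjusted p = 0.0419). KRT19 fell in sh1, from 16.21, 16.14 and 16.21 to 14.68, 14.13 and 14.68. MUC1, a mucin of ductal cells, had a change of 0.02 ± 0.16 that was not called (adjusted p = 0.948).

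**Figure D4:**
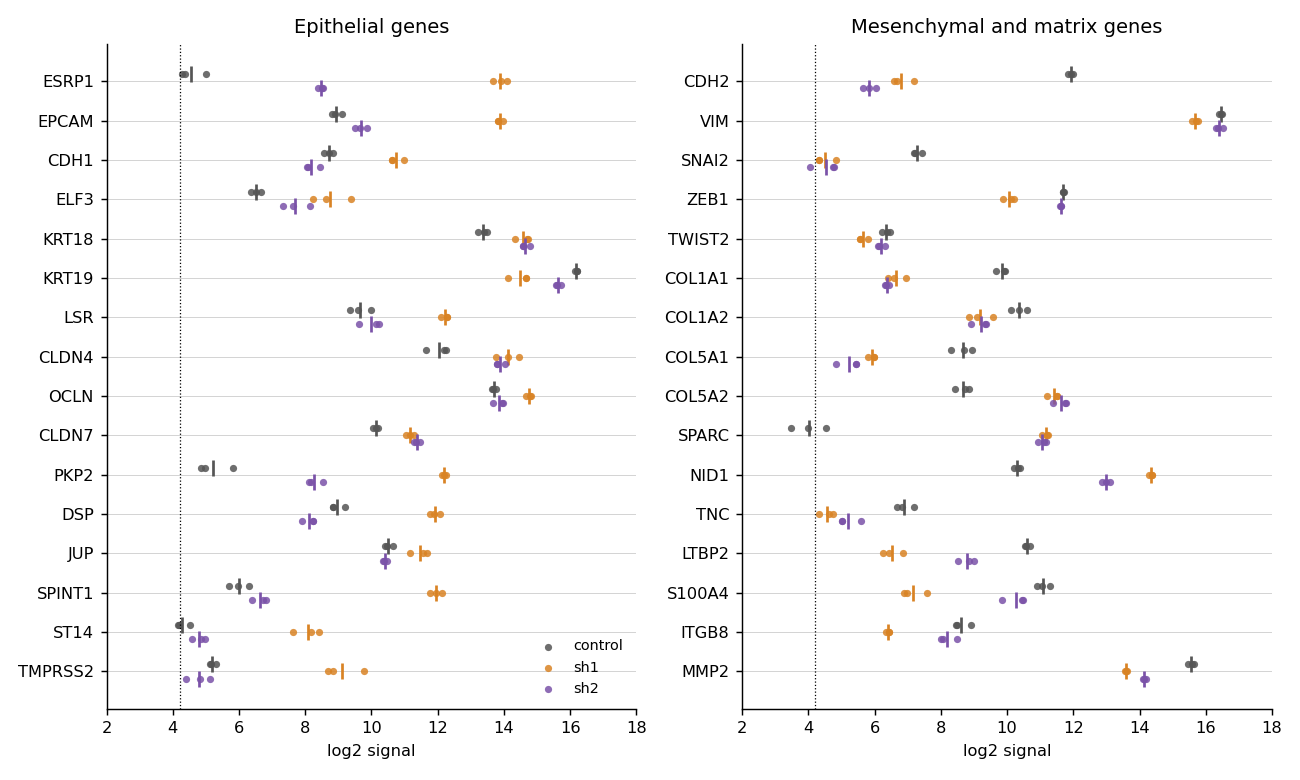
Log2 signal of each array of control (grey), sh1 (orange) and sh2 (purple) for 16 epithelial genes (left) and 16 mesenchymal and matrix genes (right), with group means as ticks and the lower quartile of row means (4.21) as a dotted line. The sh1 arrays are the highest of the 3 groups at EPCAM, CDH1, SPINT1, ST14 and TMPRSS2, and VIM and ZEB1 are lower in sh1 than in either other group.

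Epithelial transcription factors moved both ways: 5 rose and 2 fell of 19 measured, with a median of 0.10. ELF3 read 6.65, 6.37 and 6.5 in control arrays and 8.64, 9.38 and 8.24 in sh1 arrays. KLF5 (1.80) and GRHL3 (0.83), a grainyhead factor, rose, and KLF4 (-0.97) and GATA6 (-0.80) fell. Without control array 1 or 3, or without sh1 array 1 or 2, 3 genes were called higher. FOXA1 (0.67) and OVOL2 (0.62) lost their calls in 4 and 5 of the 6 fits with 1 array left out. GRHL1 and GRHL2 had changes of 0.80 ± 0.28 and 0.40 ± 0.16 that did not pass the test (adjusted p = 0.0741 and 0.114).

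EMT transcription factors had lower calls alone: 0 rose and 3 fell of 12 measured, with a median of -0.38. SNAI2, a repressor of E-cadherin, read 7.42, 7.18 and 7.23 in control arrays and 4.82, 4.33 and 4.32 in sh1 arrays, a change of -2.79 ± 0.21 (adjusted p = 3.23e-06). ZEB1 signals went from 11.73, 11.69 and 11.68 to 10.11, 10.22 and 9.88, a change of -1.63 ± 0.12 (adjusted p = 3.65e-06). ZEB1 lies on chromosome 10 within a stretch of local median -1.01, and its change less that median was -0.62 (adjusted p = 0.00478). TWIST2 (-0.71) fell as well, and ZEB2, at -0.32 ± 0.14, was not called (adjusted p = 0.14). ZEB2 signals were near background, at 4.66, 4.33 and 4.48 in control arrays and 4.29, 4.05 and 4.18 in sh1 arrays. Less a local median of 0.22 it was called, at -0.54 (adjusted p = 0.0173). That median comes from brighter genes, so this call is uncertain. Of the splicing regulators of the epithelial and mesenchymal states, ESRP1 and RBM47 (1.62) rose and RBFOX2 (-0.40) fell. RBFOX2 kept its call in 1 of the 6 fits with 1 array left out.

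SNAI and ZEB factors bind E-boxes of the form CAGGTG, read on the other strand as CACCTG, in promoters of epithelial genes. RefSeq promoter windows of GRCh38.p14 were matched to 14250 of the 17687 genes. The 250 bases before the most upstream start held CAGGTG on either strand in 17.0% of all matched genes. By call, the share was 17.5% of all genes that rose, 15.5% of those that fell and 17.1% of those not called. Of 153 measured genes of the epithelial lists 33 rose, and 22 of these had a window. The 11 without one in the table used were CDH1, ESRP1, MAL2, OVOL2, PKP2, PPL, PRSS22, RAB11FIP1, ST14, SYTL2 and TMPRSS2, so the shares below leave out several of the largest rises. A site was present in 9 of the 22 (40.9%), in 3 of the 9 that fell (33.3%) and in 13 of the 75 that did not pass the test (17.3%). The epithelial lists were chosen with earlier results of these data known, so these shares are a description. Stretches of 4 of the 9 genes are shown as examples of where the site lies, and the other 5 with a site were FOXA1, MYO5C, PATJ, PRKCZ and TJP1. Each gives the last 130 bases before the start, 5′ to 3′ on the gene's strand, with the E-box in capitals. ELF3 is at chr1:202010457-202010586 (+), DSP at chr6:7541541-7541670 (+), OCLN at chr5:69492417-69492546 (+) and GRHL3 at chr1:24319227-24319356 (+).
ELF3: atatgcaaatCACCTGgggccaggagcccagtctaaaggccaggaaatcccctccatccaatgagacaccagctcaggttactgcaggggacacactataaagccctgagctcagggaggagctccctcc
DSP: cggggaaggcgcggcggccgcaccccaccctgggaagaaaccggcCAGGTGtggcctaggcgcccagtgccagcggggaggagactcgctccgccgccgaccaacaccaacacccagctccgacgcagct
OCLN: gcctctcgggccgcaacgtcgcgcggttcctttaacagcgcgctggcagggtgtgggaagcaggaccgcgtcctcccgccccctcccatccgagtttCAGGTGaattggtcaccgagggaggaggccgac
GRHL3: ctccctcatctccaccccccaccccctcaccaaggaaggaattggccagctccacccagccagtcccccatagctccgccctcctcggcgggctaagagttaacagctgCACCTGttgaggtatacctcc
The site shown begins 120 bases before the start in ELF3, 85 in DSP, 33 in OCLN and 21 in GRHL3. DSP has another, 178 bases before the start, outside the stretch printed. A match of letters is a description and shows no binding.

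Tight junction and polarity genes mostly rose where they were called: 10 rose and 2 fell of 33 measured, with a median of 0.12, against 10.5% higher and 9.72% lower over all genes. LSR, a receptor of tricellular junctions, read 9.99, 9.36 and 9.59 in control arrays and 12.28, 12.27 and 12.11 in sh1 arrays, a change of 2.57 ± 0.19 (adjusted p = 3.23e-06). OCLN (occludin), which spans the junction, went from 13.68, 13.65 and 13.75 to 14.67, 14.81 and 14.78, a change of 1.06 ± 0.13 (adjusted p = 0.000124). The claudins CLDN4 (2.08), CLDN7 (1.04) and CLDN3 (0.90) rose, as did CGN (0.96), MARVELD2 (0.94), PATJ (0.91) and the scaffold TJP1 (1.21). TJP1 lies on chromosome 15 (local median 0.73). PARD3 (-1.26), a polarity protein on chromosome 10 with a local median of -0.89, fell.

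Desmosomal genes split: 4 rose and 3 fell of 16 measured, with a median of 0.09. The plaque genes PKP2, DSP (2.96), PPL (1.13) and JUP (0.96) rose, and the cadherins DSC2 (-2.43) and DSG2 (-0.86) fell with PERP (-1.42). DSP (desmoplakin), which ties desmosomes to keratin, read 8.83, 8.84 and 9.19 in control arrays and 11.77, 12.07 and 11.9 in sh1 arrays. DSC2 signals were 10.62, 10.26 and 10.79 and 8.11, 8.1 and 8.16. Of the classical cadherins and catenins, CDH1 and CDH18 (2.19) rose, CDH2 fell, and CTNNB1 (β-catenin) changed by -0.08 ± 0.11, which was not called (adjusted p = 0.725).

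Membrane serine proteases and their Kunitz inhibitors included 4 genes with rises of 2-fold or more: 4 rose and 1 fell of 15 measured, with a median of 0.01. ST14 (matriptase) read 4.53, 4.15 and 4.18 in control arrays and 8.18, 7.64 and 8.41 in sh1 arrays, a change of 3.79 ± 0.20 (adjusted p = 2.13e-07). TMPRSS2 went from 5.29, 5.14 and 5.12 to 8.84, 9.78 and 8.68, a change of 3.92 ± 0.26 (adjusted p = 1.6e-06). SPINT1, the inhibitor of matriptase, and PRSS22 (2.26) rose too, within stretches of local median 0.73 and 0.58. SPINT2 and PRSS8 (prostasin) were not called, at 0.17 ± 0.13 and 0.01 ± 0.20 (adjusted p = 0.457 and 0.989).

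Genes of apical transport followed: 6 rose and 1 fell of 20 measured, with a median of -0.04. MAL2 (3.29), the myosin MYO5C (1.99), the fusion protein STX3 (1.15), RAB11A (1.06) and SYTL2 (1.06) rose, and SYTL5 (-0.96) fell. MYO5C and RAB11A are on chromosome 15, and less their local medians of 0.78 and 0.85 they changed by 1.21 (adjusted p = 0.000395) and 0.20 (adjusted p = 0.263). RAB25 itself had a change of -0.50 ± 0.22 (adjusted p = 0.159).

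Fibrillar matrix and crosslinking genes fell more often than they rose: 2 rose and 10 fell of 29 measured, with a median of -0.26. COL1A1 read 9.94, 9.67 and 9.92 in control arrays and 6.41, 6.96 and 6.58 in sh1 arrays, a change of -3.19 ± 0.16 (adjusted p = 1.18e-07), where the local median was -0.57. COL5A1 (-2.74), TNC (-2.33) (tenascin C), LOXL4 (-2.14), a lysyl oxidase, COL1A2 (-1.18) and PLOD2 (-1.17) fell. COL5A2 opposed COL5A1, its partner in type V collagen, with 8.42, 8.86 and 8.72 in the control, 11.2, 11.51 and 11.51 in sh1 and a change of 2.74 ± 0.16 (adjusted p = 5.68e-07). Of the stromal marker list 2 rose and 3 fell of 11 measured, with a median of -0.13. The matrix protein POSTN (1.61) (periostin) and the surface protein THY1 (0.87) rose, and COL1A1, COL1A2 and VIM fell. VIM (vimentin) read 16.41, 16.48 and 16.45 and 15.77, 15.59 and 15.69, a change of -0.76 ± 0.12 (adjusted p = 0.000895), and it lies on chromosome 10 where the local median was -1.10. Less that median its change was 0.34 (adjusted p = 0.0725). FN1 was not called, at -0.30 ± 0.17 (adjusted p = 0.282).

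In basement membrane genes 4 rose and 3 fell of 18 measured, with a median of 0.01. NID1 read 10.4, 10.22 and 10.32 in control arrays and 14.29, 14.38 and 14.37 in sh1 arrays, a change of 4.03 ± 0.12 (adjusted p = 2.31e-09). The type IV collagen chains COL4A1 (1.77) and COL4A2 (0.72) and the proteoglycan AGRN (1.25) rose, while COL4A5 (-1.17) fell most. Less local medians 5 were called lower.

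Integrins, the receptors for these proteins, had mostly lower calls: 1 rose and 9 fell of 25 measured, with a median of -0.09. ITGB8 signals were 8.49, 8.45 and 8.92 in control arrays and 6.34, 6.43 and 6.43 in sh1 arrays, a change of -2.22 ± 0.17 (adjusted p = 3.44e-06). ITGA3 (-1.64), ITGB1 (-1.23), ITGA10 (-0.96) and ITGA11 (-0.94) fell too. ITGB1 is on chromosome 10 (local median -0.91), and less that median it changed by -0.32 (adjusted p = 0.0824). ITGA3 lies where the local median was -0.57. ITGA11 fell within a stretch of chromosome 15 whose local median was 0.92.

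Adhesion molecules of the immunoglobulin superfamily had more lower than higher calls: 3 rose and 7 fell of 27 measured, with a median of -0.01. ALCAM read 12.1, 12.2 and 12.13 in control arrays and 7.87, 8.36 and 7.9 in sh1 arrays, and NECTIN3 11.05, 11.07 and 11.15 and 7.4, 7.76 and 7.14. NCAM1 (-1.45) and CD47 (-0.95), the ligand of SIRPα, fell, and NECTIN2 (0.89) rose. Of the cell surface proteoglycans, SDC2 (-2.79) and SDC3 (-1.53) fell, GPC6 (1.20) rose, and SDC1 was not called at 0.55 ± 0.19 (adjusted p = 0.0633).

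No S100 gene was called higher: 0 rose and 5 fell of 21 measured, with a median of -0.12. All 5 of these small calcium-binding proteins that fell lie on chromosome 1, and the local median at S100A4 was 0.01. S100A4 read 11.28, 11.05 and 10.9 in control arrays and 6.9, 6.99 and 7.59 in sh1 arrays, a change of -3.92 ± 0.22 (adjusted p = 3.21e-07). S100A16 went from 10.27, 9.75 and 9.97 to 7.2, 6.37 and 7.17, a change of -3.08 ± 0.23 (adjusted p = 3.44e-06), and S100A6 changed by -1.64 ± 0.14 (adjusted p = 8.47e-06). In sh2 the changes were -0.81, 0.46 and -0.16, and the difference between the hairpin clones was -3.10 (adjusted p = 3.1e-06), -3.54 (adjusted p = 1.9e-06) and -1.48 (adjusted p = 2.71e-05). Each of the 3 was lower in sh1 than in sh2.

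Proteases of the matrix moved both ways. Among metalloproteinases and inhibitors 4 rose and 7 fell of 39 measured, with a median of 0.07. MMP2 (-1.97), a gelatinase, ADAM22 (-2.38), ADAM19 (-2.08), ADAMTS15 (-2.04) and the inhibitor TIMP1 (-1.21) fell, and MMP1 (1.86), a collagenase, and the membrane enzyme MMP15 (2.12) rose. MMP2 signals were 15.65, 15.45 and 15.57 in the control and 13.62, 13.55 and 13.6 in sh1. All 4 called ADAMTS genes of 18 measured fell. In the plasminogen and serpin list 8 rose and 4 fell of 23 measured, with a median of 0.12. SERPINB9 (2.19), F3 (1.72) (tissue factor), SERPINE2 (1.45) and SERPINF1 (1.23) rose and SERPINA3 (-1.39) fell, while PLAU and PLAUR were not called, at -0.01 ± 0.12 and 0.25 ± 0.16 (adjusted p = 0.962 and 0.33).

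Growth factor genes had more rises than falls. For EGF family ligands and receptors 6 rose and 2 fell of 16 measured, with a median of 0.22. EREG (epiregulin) read 6.04, 6.61 and 6.29 in control arrays and 9.25, 9.61 and 9.21 in sh1 arrays, a change of 3.04 ± 0.18 (adjusted p = 6.77e-07). NRG4 rose by 3.19 ± 0.23 on chromosome 15 (local median 0.60), and TGFA (1.70) and the receptor ERBB3 (1.14) rose as well. LRIG1 (-1.46), an inhibitor of these receptors, fell, and EGFR was not called, at -0.18 ± 0.13 (adjusted p = 0.422).

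In the other growth factor ligands 10 rose and 3 fell of 31 measured, with a median of 0.15. HGF, the ligand of MET, read 4.3, 4.71 and 4.31 in control arrays and 8.41, 7.57 and 7.85 in sh1 arrays, a change of 3.50 ± 0.21 (adjusted p = 6.77e-07). BDNF (2.08), IGF2 (2.03), MDK (1.39) (midkine), PDGFC (1.03) and PDGFB (1.00) also rose by at least 2-fold. The receptor tyrosine kinases outside the EGF family gave the following: 7 rose and 1 fell of 31 measured, with a median of 0.09. MERTK (2.49), FGFR2 (2.39), FGFR3 (1.47), ROR2 (1.39) and IGF1R (1.22) rose and KIT (-1.33) fell. With only rows above the lower quartile of row means fitted, 6 of these receptors were called higher and 0 lower. IGF1R is on chromosome 15, and less a local median of 0.92 it was not called (adjusted p = 0.172). Less local medians 4 of these receptor genes were called lower. FGFR2 signals were 5.78, 5.57 and 5.58 and 8.24, 8.22 and 7.64 in control and sh1. MET was not called, at 0.23 ± 0.14 (adjusted p = 0.316).

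In the TGF-β and BMP group 4 rose and 8 fell of 45 measured, with a median of 0.04. GDF15, a stress-induced member of the family, read 8.74, 8.84 and 8.68 in control arrays and 12.17, 12.62 and 12.1 in sh1 arrays, a change of 3.54 ± 0.16 (adjusted p = 7.85e-08). The ligands TGFB1 (-1.27), TGFB3 (-1.15), INHBA (-1.32) and INHBB (-1.17) and LTBP2 (-4.08) and LTBP1 (-2.55), of the latent TGF-β binding protein family, fell. TGFB1 signals were 9.43, 9.04 and 9.59 and 8.06, 8.05 and 8.15. SMAD7, a feedback inhibitor, was not called at -0.38 ± 0.17 (adjusted p = 0.161).

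For WNT genes 6 rose and 5 fell of 44 measured, with a median of 0.03. Besides TNIK, FZD3 (1.36) rose, and the secreted inhibitors DKK3 (-2.03) and SFRP1 (-1.10) and the receptor LGR4 (-1.08) fell. Without control array 1 or 2, 3 were called higher, and without control array 3 or sh1 array 3, 3 were called lower. AXIN2, a common target, was not called at 0.00 ± 0.19 (adjusted p = 0.993). For NOTCH genes 5 rose and 1 fell of 24 measured, with a median of 0.29. The ligand JAG2 (1.37) and the target NRARP (1.13) rose and MAML2 (-1.94), a coactivator, fell. Without sh1 array 2, 2 NOTCH genes were called higher.

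Interferon-stimulated genes were divided: 7 rose and 10 fell of 44 measured, with a median of 0.17. The 4 called guanylate-binding proteins of 7 measured all fell. GBP2 read 9.99, 9.94 and 9.94 in control arrays and 5.68, 5.95 and 5.77 in sh1 arrays, and GBP4 9.82, 10.1 and 9.98 and 6.72, 6.57 and 6.8. SAMD9L (-2.10) fell too. MX1, an antiviral GTPase, rose from 7.2, 7.31 and 7.73 to 9.59, 9.51 and 9.59, a change of 2.15 ± 0.17 (adjusted p = 4.87e-06), with IFITM1 (1.17) and CMPK2 (1.15). Less local medians 4 of the list were called higher. ISG15 was not called at 0.12 ± 0.18 (adjusted p = 0.728).

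Among MHC class I genes 1 rose and 8 fell of 24 measured, with a median of -0.40. ERAP2 (-1.68) and ERAP1 (-1.02), which trim peptides, and TAPBP (-1.61), PSMB9 (-0.98) and PSMB8 (-0.95) fell. Of the 14 genes on chromosome 6, 5 fell, with a median of -0.42, and of the 10 elsewhere 3 fell and 1 rose, with a median of -0.40. The local median at TAPBP was -0.55. Less their local medians of -0.58 and -0.58, PSMB8 and PSMB9 were no longer called, at -0.36 and -0.40 (adjusted p = 0.14 and 0.0657). Without control array 1, 5 of the list were called lower, and less local medians 3 were called higher.

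Of interleukin and TNF family genes 4 rose and 9 fell of 46 measured, with a median of -0.05. TNFRSF9 (-3.06), IL32 (-2.38), TNFSF10 (-2.06) (TRAIL), IL7 (-2.05) and IL7R (-1.34) fell. IL32 fell within a stretch of local median 0.60, and less local medians 7 of the list were called higher. Of the chemokines and receptors, CCL2 (-2.22) and CX3CL1 (-1.11) fell and CXCL16 (1.90) and CXCR4 (1.05) rose. CCL2 signals were 14.5, 14.63 and 14.43 in control arrays and 12.41, 12.57 and 11.92 in sh1 arrays.

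Metal-handling genes had lower calls alone: 0 rose and 13 fell of 28 measured, with a median of -0.42. The 13 include the metallothioneins MT1H, MT1L, MT1M, MT1X and MT2A, closely related copies whose probes may share signal. MT1E, MT1F and MT1G were not called. STEAP2 reduces iron and copper at membranes, STEAP1 is a membrane protein of the same family, and SLC39A8 and SLC39A14 carry zinc, manganese and iron. STEAP1 read 11.41, 11.46 and 11.26 in control arrays and 7.33, 7.12 and 7.31 in sh1 arrays, a change of -4.12 ± 0.13 (adjusted p = 2.34e-09). STEAP2 went from 12.47, 12.59 and 12.87 to 9.87, 9.66 and 9.36, a change of -3.01 ± 0.16 (adjusted p = 2.68e-07). SLC39A8 (-1.63) and SLC39A14 (-1.46) fell, and TFRC, the transferrin receptor, was not called at -0.12 ± 0.12 (adjusted p = 0.585). The count of 13 was 8 without control array 1 or 3 or without sh1 array 2 or 3, and 8 after local medians were subtracted. Without sh1 array 1, 1 of the list was called higher.

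**Figure D5:**
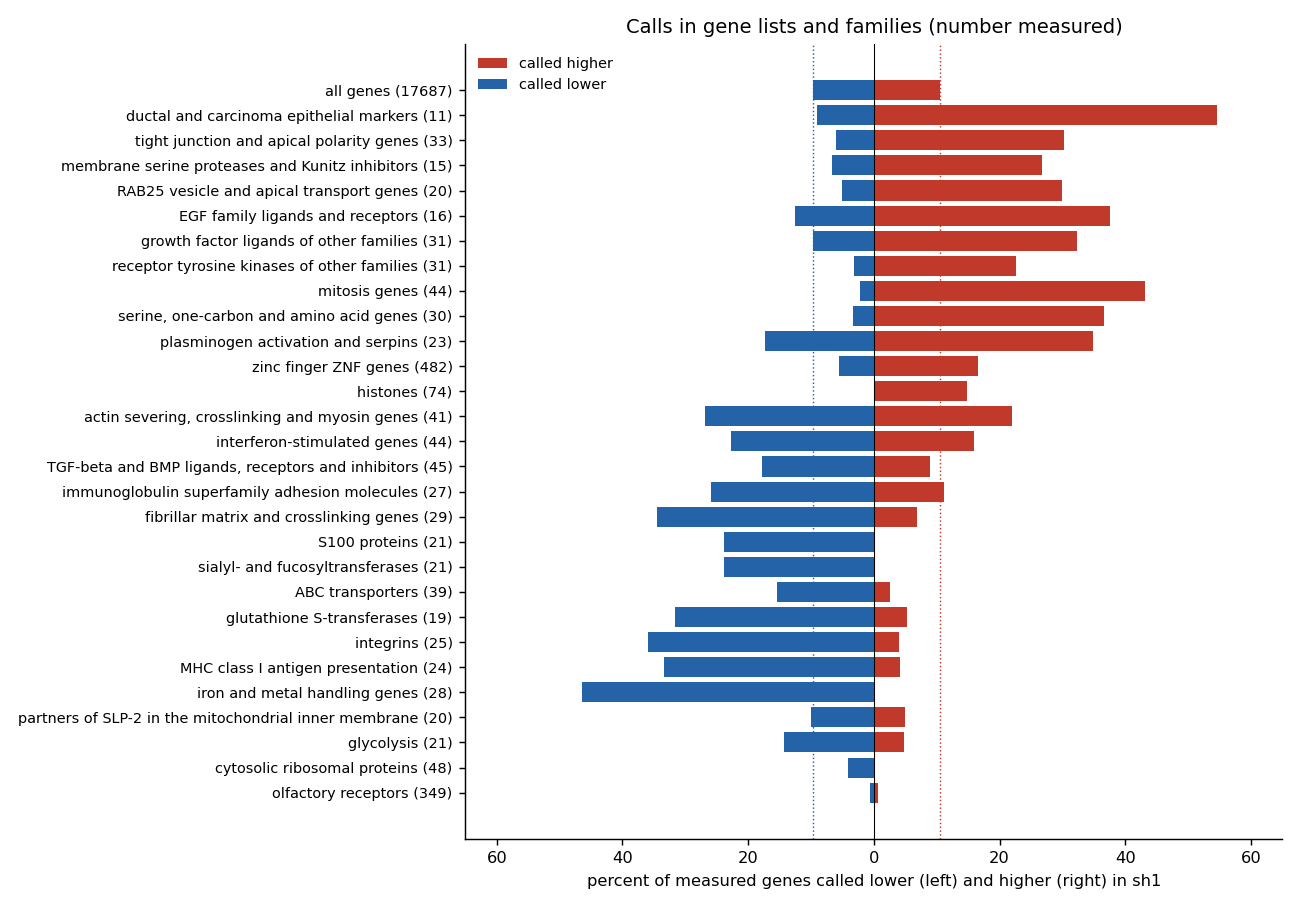
Percent of measured genes called lower (left, blue) and higher (right, red) in sh1 for all genes and 28 lists and families, with the number measured in brackets and the values of all genes as dotted lines. The 28 were picked to show the range, out of 79, and the lists were chosen with earlier results of these data known. Among those plotted, ductal and epithelial markers have the largest share called higher, iron and metal genes the largest share called lower, and olfactory receptors the smallest share called.

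Of the partners of SLP-2 15% were called, against 20.3% of all genes and 32.2% of rows in the highest bin. Their median control signal, 10.92, lies within that bin. Of 20 measured, 1 rose and 2 fell, with a median change of 0.04. YME1L1 (-1.32) lies on chromosome 10, where the local median was -1.04, and less that median its change was -0.28 (adjusted p = 0.15). MICOS13 (-0.96), of the cristae junction complex, fell within a local median of -0.32, and less that it changed by -0.64 (adjusted p = 0.0505). TAFAZZIN (0.50), which remodels cardiolipin, kept its call in 2 of the 6 fits with 1 array left out. In protein import 1 rose and 5 fell of 30 measured, with a median of -0.11, with TOMM7 (-0.83) and TIMM21 (-0.67) among the latter. For mitochondrial ribosomal proteins 8 rose and 9 fell of 74 measured, with a median of -0.07, the largest change being MRPL36 (-1.10). Their count of 8 higher was 3 without control array 2, 5 without control array 3, 4 without sh1 array 1 and 2 after local medians were subtracted.

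The study's title turns on a rate-limiting enzyme of hexosamine synthesis. No list of that pathway was made, and its genes are named here after their values were seen. GFPT1 and GNPNAT1 rose by 0.84 ± 0.17 (adjusted p = 0.00395) and 0.55 ± 0.14 (adjusted p = 0.015). The GNPNAT1 call was lost without control array 1 or 2 or sh1 array 2. GFPT1, which encodes an enzyme of the rate-limiting step, read 12.79, 12.85 and 13.18 in control arrays and 13.77, 13.76 and 13.81 in sh1 arrays. The genes given here do not cover the whole pathway. The salvage kinase NAGK (-0.75) fell. UAP1, which makes the sugar nucleotide, was not called at -0.23 ± 0.13 (adjusted p = 0.293), nor were OGT and OGA, which add and remove O-GlcNAc, at 0.19 ± 0.17 and -0.02 ± 0.21 (adjusted p = 0.504 and 0.966).

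Glycolysis and citrate cycle genes were called about as often as all genes (20.3%), a share not matched for signal level. Their median control signals, 13.69 and 11.52, lie in the highest of the 4 bins, where 32.2% of rows were called. Both lists had a smaller share called than that bin. The pentose phosphate list, at a median control signal of 10.49, had 30% of its 10 genes called. In glycolysis 1 rose and 3 fell of 21 measured, with a median of -0.08, and less local medians 6 were called lower. SLC2A3 (1.46), a glucose transporter, rose, and the falls of PFKFB3 (-0.86) and PFKP (-0.74) lay on chromosome 10 with local medians of -0.95 and -0.95. HK1 (-0.74) fell too, also on chromosome 10, where its local median was 0.13. LDHA and HK2 were not called, at -0.28 ± 0.11 and 0.31 ± 0.16 (adjusted p = 0.116 and 0.217). In the citrate cycle 3 rose and 2 fell of 25 measured, with a median of -0.07. The isocitrate dehydrogenases IDH1 (0.60), IDH2 (0.86) and IDH3A (0.75) rose, the last pair on chromosome 15 with local medians of 0.81 and 0.60, and OGDH (-0.57) and SUCLG1 (-0.52) fell. Less local medians 1 was called higher and 4 lower. In the pentose phosphate list 2 rose and 1 fell of 10 measured, with a median of 0.11. TKT (-1.53), transketolase, fell from 14.48, 14.38 and 14.48 to 13.0, 12.82 and 12.94.

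Serine, one-carbon and amino acid genes had more higher than lower calls: 11 rose and 1 fell of 30 measured, with a median of 0.21. Less local medians 4 were called lower. PHGDH and PSAT1 start serine synthesis from glycolysis, and SHMT2 and MTHFD2 carry the one-carbon unit in mitochondria. PHGDH read 12.24, 12.29 and 12.17 in control arrays and 13.1, 12.93 and 13.17 in sh1 arrays, a change of 0.83 ± 0.12 (adjusted p = 0.00047). PSAT1 (0.90), SHMT2 (0.89), MTHFD2 (0.73), the branched-chain transaminase BCAT1 (1.32) and the cystine carrier SLC7A11 (1.21) rose. GLUL (-1.18), glutamine synthetase, fell, and ASNS was not called at -0.03 ± 0.16 (adjusted p = 0.939).

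Creatine genes had 4 rises of at least 2-fold: 4 rose and 0 fell of 8 measured, with a median of 0.79. GATM, the first enzyme of creatine synthesis, read 7.07, 7.27 and 7.13 in control arrays and 10.18, 10.4 and 10.25 in sh1 arrays, a change of 3.12 ± 0.15 (adjusted p = 1.16e-07). It lies on chromosome 15 with the CKMT1 genes, at a local median of 0.76, and less that median it changed by 2.36 (adjusted p = 1.04e-06). The transporter SLC6A8 (1.39) rose on chromosome X. CKB, the cytosolic kinase, was not called at 0.11 ± 0.13 (adjusted p = 0.621).

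In the glutathione and NRF2 list 5 rose and 8 fell of 40 measured, with a median of -0.09. HMOX1 (1.41), TXNRD1 (1.29) and SLC7A11 (1.21) rose and ABCC3 (-1.83), MGST1 (-1.42) and CAT (-0.97) fell, while NQO1 was not called at -0.11 ± 0.12 (adjusted p = 0.632). The local median at ABCC3 was -0.59. Less local medians the list had 9 higher and 5 lower. Among glutathione transferases 1 rose and 6 fell of 19 measured, with a median of -0.15, the lower count being 3 without control array 2 or 3 or sh1 array 1 or 2. ABC transporters gave these counts: 1 rose and 6 fell of 39 measured, with a median of -0.14. ABCC4 (-1.26) and ABCG2 (-0.94) fell, and ABCG1 (0.81) rose, a call lost without control array 2 or 3 or sh1 array 2. ABCG1 was near background, with means of 3.48 in control and 4.29 in sh1. Among aldehyde and retinoid genes 3 rose and 4 fell of 25 measured, with a median of 0.05, with ALDH3B1 (-2.06), DHRS9 (-1.73), CRABP2 (-1.29) and RDH11 (-1.15) lower and ALDH1A3 (1.34) higher. DHRS9 was near background in sh1, at 2.9, 3.68 and 3.09. ALDH1A3 is on chromosome 15, and less a local median of 0.92 it was not called (adjusted p = 0.0549). Less local medians 1 of this list was called higher.

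Glycan-building genes had more lower than higher calls. For sialyl- and fucosyltransferases 0 rose and 5 fell of 21 measured, with a median of 0.03. ST8SIA1, which makes the ganglioside GD3, read 5.63, 5.73 and 5.39 in control arrays and 3.16, 3.63 and 3.48 in sh1 arrays. ST3GAL5 (-1.53), ST8SIA4 (-1.33) and ST6GAL1 (-1.01) fell as well. Less local medians 3 of these genes were called higher, and without sh1 array 2, 1 was. In mucin-type O-glycan genes 2 rose and 6 fell of 25 measured, with a median of 0.01. GALNT2 (-1.91) and GALNT10 (-1.69) fell most and GALNT11 (0.61) rose most, and without control array 2, sh1 array 1 or sh1 array 2, or less local medians, 1 was called higher. Of the mucins and related proteins, PODXL (-3.69) and CD24 (-1.36) fell and MUC3A (1.46) rose. PODXL (podocalyxin) went from 12.57, 12.39 and 12.56 to 8.83, 9.09 and 8.52.

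Mitosis genes had more higher than lower calls: 19 rose and 1 fell of 44 measured, with a median of 0.35. PRC1, which bundles spindle microtubules, read 12.69, 12.91 and 13.01 in control arrays and 14.32, 14.21 and 14.35 in sh1 arrays, a change of 1.42 ± 0.13 (adjusted p = 1.57e-05). CCNB2 (1.31), KIF23 (1.26), BUB1B (0.91) and NUSAP1 (0.87) followed. All 5 lie on chromosome 15, with local medians of 0.92, 0.63, 0.89, 0.74 and 0.77 in that order, and less these KIF23, BUB1B and NUSAP1 were not called (adjusted p = 0.0581, 0.399 and 0.69). Of the 39 mitosis genes on other chromosomes 14 rose and 1 fell, with a median of 0.30, among them CENPA (0.86), PLK4 (0.75) and AURKB (0.75). The count of 19 was 12 after local medians were subtracted, 12 without control array 2 and 11 without sh1 array 3. The count of 1 lower was 1 without sh1 array 1 and 0 without any other array or less local medians. MKI67 was not called at 0.31 ± 0.13 (adjusted p = 0.127). In DNA replication 6 rose and 2 fell of 45 measured, with a median of 0.22, and PCNA was not called at 0.43 ± 0.14 (adjusted p = 0.0604). The 2 lower calls became 0 without control array 2 or 3 or sh1 array 2 or 3, and 1 without control array 1.

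Of cell cycle regulators of G1, CCND2 (cyclin D2) rose from 8.67, 9.09 and 8.9 to 10.82, 11.51 and 11.05, a change of 2.24 ± 0.18 (adjusted p = 5.88e-06). CDKN1A, the p53-induced inhibitor p21, fell from 9.66, 9.32 and 9.48 to 8.24, 8.0 and 8.17, a change of -1.35 ± 0.14 (adjusted p = 3.14e-05). Of the p53 targets 3 rose and 6 fell of 23 measured, with a median of -0.05. CCNG1 (-1.16), TP53INP1 (-0.97) and TP53I3 (-0.95) fell, and MDM2 (0.89), SESN2 (1.24) and AEN (1.18) rose. SESN2 lost its call without any 1 of the 3 control arrays, and TP53INP1 without control array 3. AEN lies on chromosome 15, with a local median of 0.63. For the BCL2 family 3 rose and 2 fell of 17 measured, with a median of -0.02, with PMAIP1 (1.21) (NOXA) higher and BCL2L1 (-0.89) lower. Without control array 2, 1 was called higher, and without control array 1 or 3 or sh1 array 3, 1 was called lower.

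Actin genes moved in both directions: 9 rose and 11 fell of 41 measured, with a median of -0.09. SCIN read 3.54, 3.32 and 3.64 in control arrays and 8.81, 8.55 and 8.6 in sh1 arrays. MYO1D (3.65) and MYH10 (1.75) rose, and CALD1 (-2.33) (caldesmon), SVIL (-2.01), MSN (-1.14) (moesin) and MYL9 (-0.98) fell. SVIL lies on chromosome 10 (local median -1.04), and TAGLN was not called at 0.00 ± 0.19 (adjusted p = 1). Of neuronal and granin genes 3 rose and 4 fell of 31 measured, with a median of 0.00, with SCG2 (3.43) and UCHL1 (1.33) higher and DPYSL2 (-1.37) lower.

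Large symbol families gave a wide base. Of ZNF genes 80 rose and 27 fell of 482 measured, with a median of 0.11. Of 33 on chromosome 7, 11 rose and 2 fell, with a median of 0.35. Of 233 on chromosome 19, 37 rose and 9 fell, with a median of 0.14. Less local medians 40 ZNF genes were called higher, and without control array 1 it was 46. Without control array 3, 17 were called lower. The largest single changes were lower, ZNF385D (-3.29) and ZNF512 (-3.10). Of histone genes 11 rose and 0 fell of 74 measured, with a median of 0.33, led by H1-3 (1.14), with 6 without control array 3 or sh1 array 2, 7 without control array 2, and 6 less local medians. Near-identical histone copies may share probe signal.

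For solute carriers 46 rose and 33 fell of 362 measured, with a median of 0.08. SLC45A3 (1.93) rose and SLC4A11 (-2.52) and SLC38A3 (-2.13) fell most, and without control array 3, 30 were called higher. Among potassium channels 6 rose and 7 fell of 88 measured, with a median of 0.04, with KCNH2 (2.24) and KCNK15 (1.63) higher besides KCNH7 and KCNIP3 (-1.70) lower. Without sh1 array 1, 4 channels were called lower. For semaphorins and plexins 7 rose and 3 fell of 28 measured, with a median of 0.11; SEMA7A (1.92) and SEMA3A (1.65) rose and SEMA3E (-2.07) fell. The local median at SEMA7A was 0.71. Of HOX genes 2 rose and 4 fell of 23 measured, with a median of -0.00. The 4 lower HOX genes sit together on chromosome 17, and none was called less local medians. The count of 2 higher was 2 without control array 3, 1 without sh1 array 3, and 0 without any other array or less local medians. Of 5 cancer-testis antigens that rose among 30 measured, MAGEA6 (2.42) led, though MAGEA copies are close to identical. Without control array 1 or 2 or sh1 array 2, 3 were called higher.

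Families of tissue-restricted genes had few calls, and they lay near background, where 2.61% of rows were called. The median control signal was 3.52 for olfactory receptors, 4.29 for keratin-associated proteins and 3.85 for bitter taste receptors. Of 349 olfactory receptors 2 rose and 2 fell, of 85 keratin-associated proteins 1 rose, and of 21 bitter taste receptors none was called. Without sh1 array 3, 7 olfactory receptors were called higher and 0 lower, and less local medians 16 were called lower. Of keratin-associated proteins 1 was called higher without control array 1 or 2 and 0 without any other array. Cytosolic ribosomal proteins had 0 higher and 2 lower of 48, with a median of -0.06, and 4 lower less local medians.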

How the data were processed

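Per the labels' protocols, 100 ng of total RNA (Nucleospin kit) were amplified to DNA and biotin-labelled (WT Plus kit) for whole-transcript arrays with 1 colour. The authors deposited a table of normalized log2 signals made with Transcriptome Analysis Console (version and settings not given in the sources used here), per the submitters' processing notes. The log2 scale was read from the range and the matching distributions of the arrays. Genes were named by the platform annotation, with symbols matched to RefSeq GRCh38.p14 through gene IDs, which changed the symbol of 0 rows. Values were used as deposited.

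From these values limma 3.58.1 in R 4.3.3 fitted 1 linear model over the 9 arrays with group means and moderated variances. Contrasts were sh1 minus control and sh1 minus sh2, and sh2 minus control where values stand side by side. Benjamini-Hochberg adjustment covered 21448 rows. Local medians were taken over the 40 nearest genes with a signal above the median row, leaving out the gene itself. They were subtracted from the sh1 values before a second fit, which is uncertain for rows near background. Lists (57) and symbol families (22) were described by counts and medians. Those named were STOML2, the 15 genes that rose and fell most with no overlap of arrays, and in each list up to 5 called members of largest change plus fixed anchor genes, while 37 further genes were named after their values were seen. The members and lists were chosen with earlier results of these data known. The fit was checked on simulated data. Alternatives changed the scaling, filter, prior, samples, block, threshold and neighbours, or left out 1 array.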

Additional observations from a re-analysis of the deposited data

Results flagged for a closer look

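The 2 hairpin clones were set against the same 3 control arrays, so their changes share those arrays, and only the contrast of sh1 with sh2 tests a difference. Over all genes 12.4% differed between sh1 and sh2. Among the 15 genes that rose most and the 15 that fell most in sh1, 25 differed. They were picked for the size of their sh1 change, and the contrast reuses those sh1 arrays. A share above that of all genes was therefore favoured in advance.

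The sh1 arrays were above sh2 at SPINT1 (5.31), ESRP1 (5.41), EPCAM (4.20), NEO1 (3.97), PKP2 (3.92), ALDH1A1 (3.22), CKMT1B (2.64), PLEKHG1 (2.18), CKMT1A (2.11), NID1 (1.36), KCNH7 (1.22) and OLR1 (1.21), on the log2 scale. At SPINT1 the sh2 arrays read 6.71, 6.82 and 6.4 and the sh1 arrays 11.76, 11.95 and 12.14, and at ESRP1 they read 8.37, 8.51 and 8.54 and 13.68, 14.08 and 13.9. Of genes that fell against the control, EDIL3 (1.77), CDH2 (0.97) and STOML2 (0.59) were less reduced in sh1 than in sh2.

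The sh1 arrays were below sh2 at TRHDE (-4.42), SLCO1B3 (-2.72), TRIB2 (-2.52), LTBP2 (-2.27), STEAP1 (-1.19), CDK14 (-0.84), DRD1 (-0.76) and GBP2 (-0.50), all of which fell in both clones. They were also below sh2 at TNIK (-2.46) and SCIN (-0.51), which rose in both. For TRHDE the sh2 arrays read 7.29, 7.67 and 7.57 and the sh1 arrays 3.54, 2.68 and 3.04.

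Of 452 genes that the naming covers, 202 differed between the clones, and 17 were called in opposite directions against the control. Many of these were also picked by their sh1 change, so the counts are a description. Those in opposite directions include CDH1, GATM and MYH10, higher in sh1 and lower in sh2, and MAML2, LGR4 and INHBA, the reverse. Among the 3739 rows with no gene symbol, which enter no list above, 437 (11.7%) were called in sh1. They are reported as a count because their genes are not named in the table used here.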

How the results depend on the processing

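All rows of the table are counted here. The fit called 2094 higher and 1931 lower. Leaving out 1 array of the control or sh1 gave 1531 to 1735 higher and 1491 to 1653 lower, and a STOML2 change of -5.40 to -5.28. At an adjusted p under 0.01 the counts were 1193 and 1232, and with a change of at least 2-fold 544 and 656. Between sh1 and sh2, 2423 rows differed, 1854 to 2271 with 1 array left out, 1331 at an adjusted p under 0.01 and 755 with at least 2-fold. The sh1 to sh2 contrast has no value for the fit on 6 arrays or with neighbour medians subtracted, which leave out or do not adjust sh2. The fit with the replicate block gave 2093 higher and 1903 lower, and STOML2 stayed at -5.35. Array numbers were not treated as pairs, since same-numbered control and sh1 arrays deviated together at r = 0.0856, -0.0358 and 0.0322. The highest values with sh2 were for array 1, at 0.180 with control and 0.122 with sh1. With quantile normalization the counts were 2018 and 2019, and with median centring 2012 and 1933.

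Subtracting neighbour medians gave 1798 higher and 2119 lower, and 71.2% of the rows called without it were called again. It turned the sign of VIM (0.34), VEGFA (0.34), PFKP (0.21), KIF5B (0.22), GSTA4 (0.12), TAP1 (0.10), PFKFB3 (0.092) and SMAD3 (-0.27), none of them then called. B2M (-0.41), ZEB2 (-0.54), CS (-0.50), THBS1 (-0.92), SLC2A1 (-0.67), TOMM20 (-0.54), C1GALT1 (-0.47) and AXL (-0.43), not called before, were then called. No other alternative turned the sign of a named gene's call. Of 380 genes that the naming covers and that were called in sh1, 290 were called under every alternative other than the stricter thresholds. Rows near background limit the comparison, with 2.61% called in the lowest of the 4 bins.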
